A study of Mus musculus with 4 samples.

Results

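The genes described here are 38 mouse genes of the endoplasmic reticulum (ER), out of 24421 measured, which were chosen by name as chaperones, disulfide isomerases and ER degradation genes. By role they fall into 25 folding genes (13 chaperones and co-chaperones, 9 genes of disulfide exchange and 3 prolyl isomerases), 10 degradation genes, and 3 genes outside both roles, namely the ubiquitin-like modifier Ufm1 and the stress sensors Ern1 and Atf6. All 38 were present in the tables of all 4 libraries and all 38 passed the filter on low counts.

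Single cells sorted as CD138+ B220-, the surface profile of plasma cells, were profiled from mice of the C57/BL6 background. The VQ cells were donor-derived myeloma cells of the VQ-D2 line, which carry a V{kappa}*MYC transgene, an Nras LSL Q61R/+ allele and IgG1-Cre, taken from recipient animals, from the bone marrow (2 libraries) and from a lymph node (1 library). The Nras allele is a mutant form that stays silent until Cre, here driven by IgG1, removes a stop cassette. They were set against wild-type (WT) bone marrow from age-matched mice (1 library). No ages were given, and the labels say neither whether the 2 VQ bone marrow libraries came from separate animals nor whether the lymph node came from one of those animals, so any p-value below reflects how far these libraries spread, and that spread may be purely technical.

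Plasma cells secrete antibody in bulk and carry an enlarged ER. In the ER lumen, Hsp70- and Hsp90-type chaperones and their J-domain partners bind unfolded chains, calnexin and calreticulin hold glycoproteins, and disulfide isomerases and prolyl isomerases form and rearrange the bonds that antibody domains need. Chains that fail to fold are recognised by mannosidase-like proteins and lectins, passed back through the membrane by the Sel1l-Syvn1 ubiquitin ligase complex with derlins, and degraded by the proteasome (ER-associated degradation). Many genes of both arms are targets of the unfolded protein response, whose sensors include the proteins encoded by Ern1 and Atf6 and whose transcription factors include Xbp1.

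Cells were chosen by Jchain, which encodes the joining chain of polymeric antibodies. WT cells entered when Jchain made up at least 5% of their UMIs (unique molecular identifiers, each counting 1 captured transcript), and VQ cells entered when it made up under 5%. This kept 226 of 245 and 170 of 188 cells of VQ bone marrow replicates 1 and 2, 185 of 185 cells of VQ lymph node and 106 of 163 cells of WT bone marrow. Without Jchain these cells held 1039024, 441973, 799731 and 162471 UMIs in that order, so the WT values carry the largest counting error. From 0 to 5 cells in each library lay within 1 percentage point of the 5% limit, and no cell barcode was shared between libraries. Marker levels are given as CPM, here counts scaled to the library's own total without Jchain. Of 12 plasma cell markers, which include Sdc1 (CD138), from 10 to 12 had a UMI in each library. Their summed level was 7568 and 8012 CPM in VQ bone marrow and 8044 in VQ lymph node, against 22010 in WT bone marrow. Cells of the groups also differed in other marker lists. Proliferation markers summed to 2461 and 2373 CPM in VQ bone marrow (12 of 12 detected in each) and 2046 in VQ lymph node (12 of 12), against 154 in WT bone marrow (8 of 12). MHC class II genes summed to 47.2, 29.4 and 27.5 CPM in the 3 VQ libraries, against 2000 in WT. Neutrophil markers summed to 994 and 2910 CPM in VQ bone marrow and 1.25 in VQ lymph node, where 7 of the 8, S100a8 and S100a9 among them, were at 0, against 80.0 in WT bone marrow. Erythroid markers were at 0 in all 4 libraries. The part of these differences in the results below was not tested except where a value without such cells is given.

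Promoter sequence was searched for elements of the unfolded protein response. The ER stress response element (ERSE), bound in mammals by the Atf6 and Xbp1 proteins together with NF-Y, was searched on both strands of RefSeq promoter windows (GRCm38.p6, 250 bases before to 50 bases after the start site), which were available for 33 of the 38 genes. All patterns searched in this paragraph are textbook consensus forms that were not read from a source of the study, and every motif count rests on them. Many genes of both arms are known targets of the unfolded protein response. A higher share among them than over all genes is therefore no test of how they are related. ERSE was present in 10 of 33 genes (30.3%), against 37 of 27025 genes with a window (0.137%). Among folding genes it was present in 8 of 22, and among degradation genes in 2 of 9. A second form, ERSE-II, was present in 2 of 33 genes (6.06%), against 12 of 27025 (0.0444%). No gene held both forms. All matches of the 2 forms are shown. In the first comparison below, the genes with an ERSE did not move together. Pdia6 rose, Hsp90b1, Dnajc3, Creld2, Derl3 and Syvn1 fell, and Hspa5, Calr, Canx and Ero1lb were not called. Of the genes with an ERSE-II, Herpud1 fell and Dnajb11 was not called. Motif letters are in capitals, with 5 flanking bases on each side, 5′ to 3′ on the strand that carries the motif.
Hspa5, chr2:34772020-34772048 (+): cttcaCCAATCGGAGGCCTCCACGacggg
Hsp90b1, chr10:86705633-86705661 (-): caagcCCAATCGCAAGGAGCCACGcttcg
Hsp90b1, chr10:86705528-86705556 (+): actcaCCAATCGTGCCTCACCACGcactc
Calr, chr8:84847070-84847098 (+): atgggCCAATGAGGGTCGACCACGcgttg
Canx, chr11:50325795-50325823 (-): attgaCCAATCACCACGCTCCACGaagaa
Dnajc3, chr14:118937822-118937850 (+): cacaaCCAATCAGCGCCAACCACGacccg
Creld2, chr15:88819515-88819543 (-): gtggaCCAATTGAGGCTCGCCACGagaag
Pdia6, chr12:17266486-17266514 (+): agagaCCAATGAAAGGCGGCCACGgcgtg
Ero1lb, chr13:12565677-12565705 (-): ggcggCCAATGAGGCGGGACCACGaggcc
Derl3, chr10:75893237-75893265 (-): gctagCCAATGGGGAAGTCCCACGgtaga
Syvn1, chr19:6046527-6046555 (+): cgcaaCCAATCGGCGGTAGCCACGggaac
Dnajb11 (ERSE-II), chr16:22857847-22857867 (+): cggcgATTGGCCCACGcctgg
Herpud1 (ERSE-II), chr8:94386372-94386392 (+): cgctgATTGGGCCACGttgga
The Dnajb11 motif began 7 bases after the start site and the others before it. A match describes these letters only and shows no binding. The core of a further element, TGACGTG, was present in 4 of 22 folding genes (Hspa5, Txndc5, Txndc11 and Fkbp11) and 0 of 9 degradation genes, against 601 of 27025 genes (2.22%).

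The first comparison set VQ bone marrow against WT bone marrow. Of the 38 genes, 20 fell, 5 rose and 13 did not pass the test (edgeR's quasi-likelihood test, Benjamini-Hochberg adjusted p under 0.05 over 8414 genes). Over all genes tested, 12.3% fell and 17.0% rose. Degradation genes were lower by more than folding genes: 7 of 10 degradation genes fell, 1 rose and the median log2 fold change was -1.29, while 13 of 25 folding genes fell, 4 rose and the median was -0.61. The median over all genes was 0.19. Whether the 2 roles differ was not tested. From here on levels are CPM without Jchain after TMM scaling, a correction for the library's composition, and each log2 fold change is given ± its SE, computed back from the test.

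**Figure D1:**
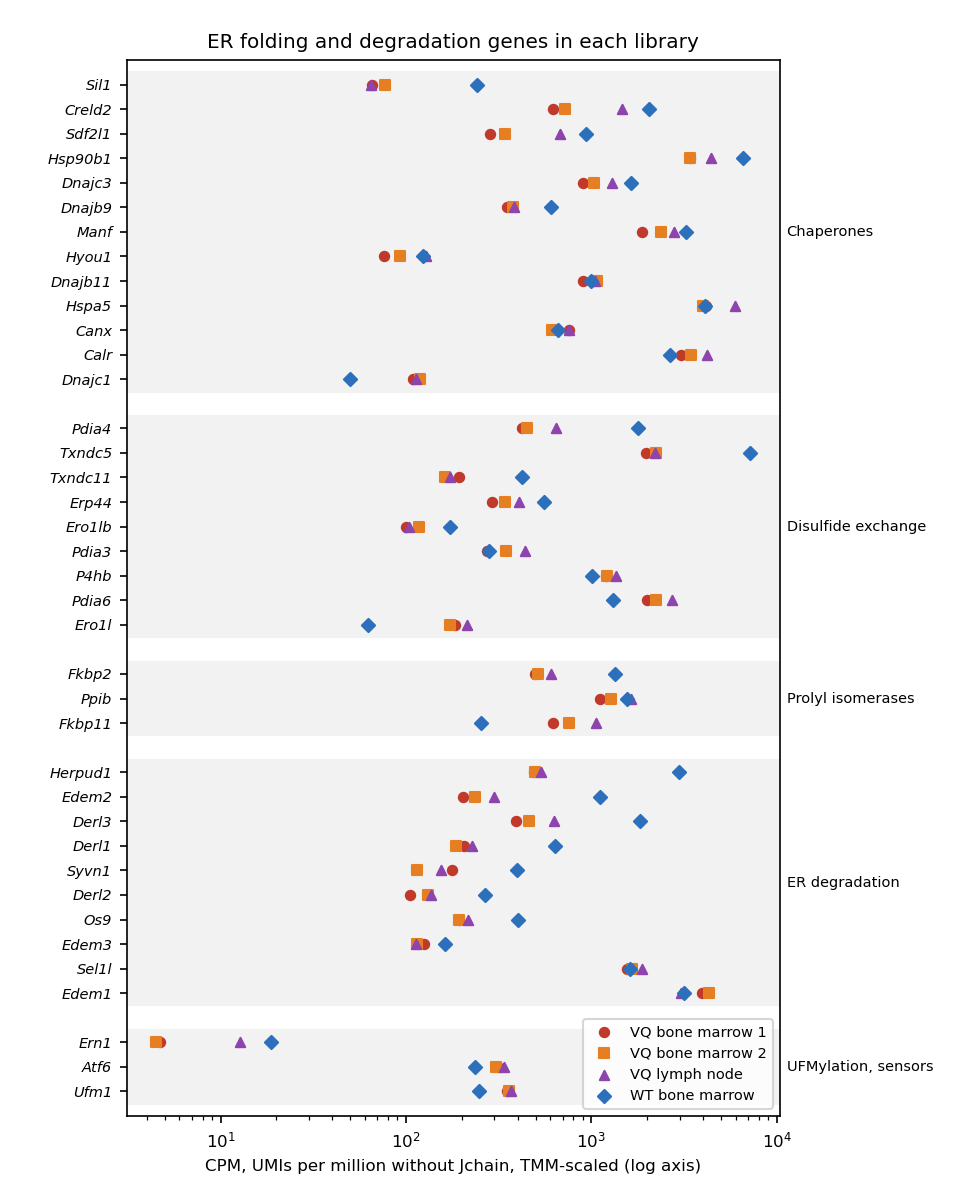
Level of each of the 38 genes in each library, as TMM-scaled CPM without Jchain on a log axis, with 1 point per library and genes grouped by role. All 3 VQ libraries lay below WT bone marrow for 13 of 25 folding genes and 8 of 10 degradation genes. The share of all genes with this pattern was not counted.

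**Figure D2:**
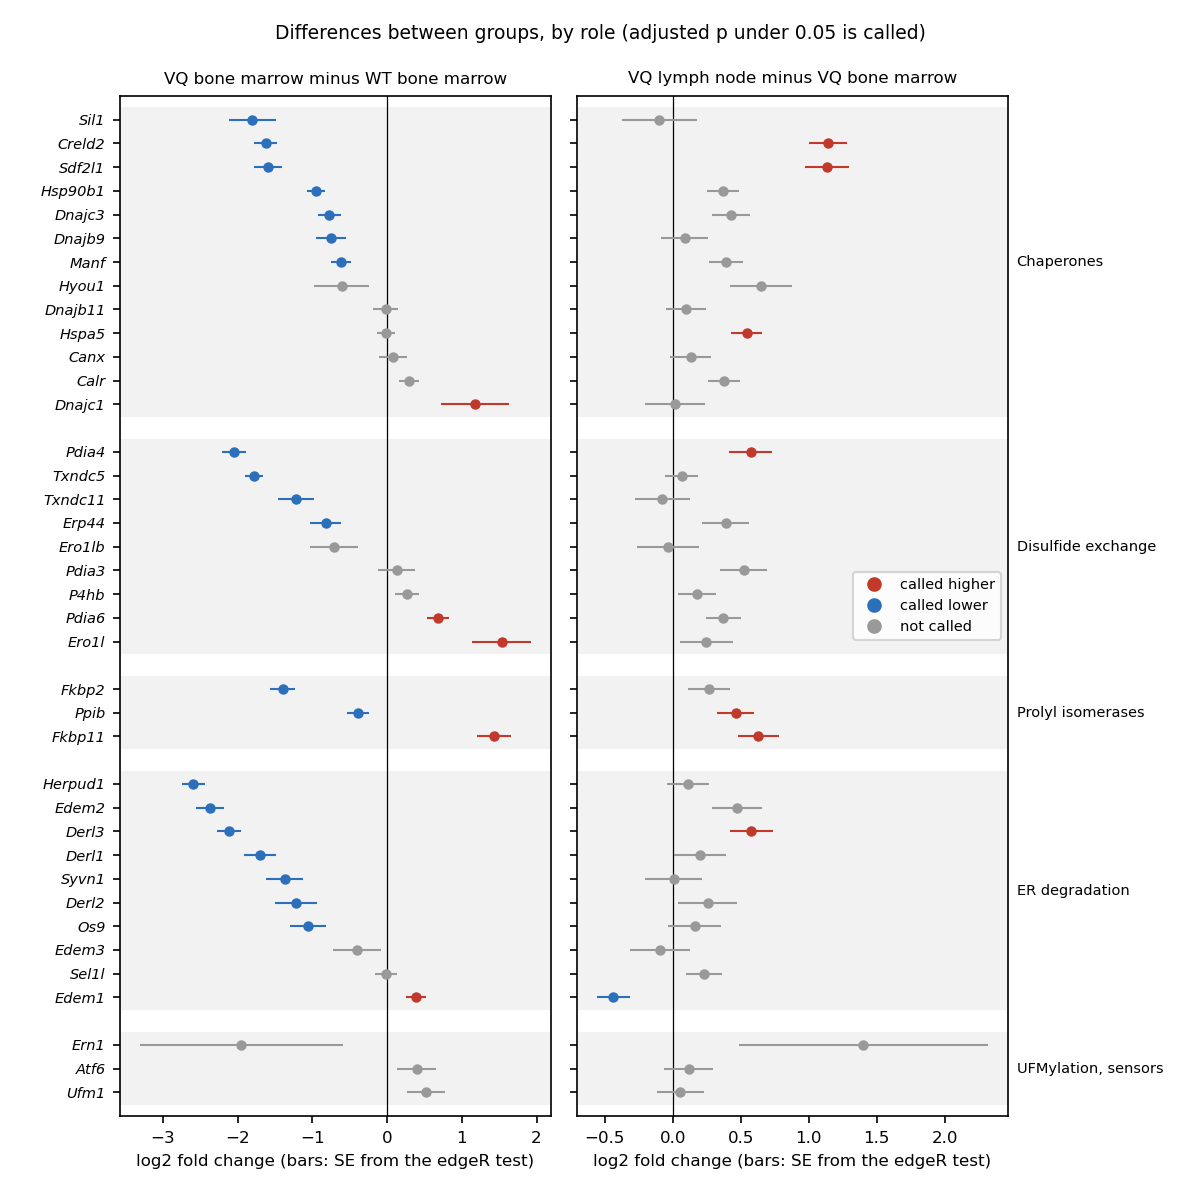
Log2 fold change of each gene, with bars for the SE from the edgeR test, for VQ bone marrow minus WT bone marrow on the left and VQ lymph node minus VQ bone marrow on the right. On the left 20 genes were called lower and 5 higher, and on the right 7 were called higher and 1 lower.

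Of the 10 degradation genes, 7 fell (Herpud1, Edem2, Derl1, Derl2, Derl3, Syvn1 and Os9), Edem1 rose, and Edem3 and Sel1l did not pass the test. Herpud1 encodes a membrane protein that binds the Syvn1 ligase and is strongly induced by ER stress. It had 489 and 496 CPM in VQ bone marrow and 532 CPM in VQ lymph node, against 2967 CPM in WT bone marrow. Its log2 fold change was -2.59 ± 0.15 (edgeR adjusted p = 2.02e-43), the most negative of the 38 genes. Edem2, which encodes the mannosidase-like protein that begins the trimming of misfolded glycoproteins, had 202 and 234 CPM in VQ bone marrow and 299 CPM in VQ lymph node, against 1117 CPM in WT (-2.37 ± 0.19, edgeR adjusted p = 1.02e-26). The 3 derlins, membrane proteins of the export channel, all fell, and no VQ library reached the WT level for any of them. Derl3, the derlin typical of secretory cells, had 394 and 459.9 CPM in VQ bone marrow and 632 CPM in VQ lymph node, against 1831 CPM in WT (-2.11 ± 0.16, edgeR adjusted p = 3.37e-28). Derl1 had 204 and 187 CPM in VQ bone marrow and 227 CPM in lymph node, against 639 CPM in WT (-1.69 ± 0.21). Derl2 had 105 and 131 CPM in VQ bone marrow and 137 CPM in lymph node, against 267 CPM in WT (-1.22 ± 0.28). The drop was thus largest for the secretory-type derlin and was called for each of the 3.

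The ligase and the lectin that delivers substrates to it also fell, but the ligase's partner did not pass the test. Syvn1 (Hrd1), the ubiquitin ligase, had 178 and 115 CPM in VQ bone marrow and 154 CPM in lymph node, against 397 CPM in WT (-1.37 ± 0.25). The lectin gene Os9 had 193 and 194 CPM in VQ bone marrow and 216 CPM in lymph node, against 403 CPM in WT (-1.06 ± 0.24). The edgeR adjusted p of the 7 degradation genes that fell was at most 0.000217. Sel1l, the scaffold that stabilises Syvn1, had 1566 and 1655 CPM in VQ bone marrow and 1884 CPM in lymph node, against 1619.9 CPM in WT, a log2 fold change of -0.01 ± 0.15. Edem3 had between 114 and 161 CPM over the 4 libraries and did not pass.

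Edem1, a further mannosidase-like recognition protein, went the other way. It had 3953 and 4326 CPM in VQ bone marrow and 3056 CPM in VQ lymph node, against 3159 CPM in WT bone marrow. Both VQ bone marrow libraries were above WT, with a log2 fold change of 0.39 ± 0.13 (edgeR adjusted p = 0.0145). Edem1 made up 53.3% and 54.7% of the UMIs of the 10 degradation genes in VQ bone marrow and 42.2% in VQ lymph node, against 25.1% in WT. In cells with no UMI of a proliferation marker the Edem1 difference turned to -0.18 (edgeR adjusted p = 0.513). Such cells numbered 29 and 32 in VQ bone marrow.

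Among the chaperones, the main Hsp70 and the calnexin cycle did not pass the test, and the Hsp90 and several cofactors fell. Hspa5 (BiP), the Hsp70 chaperone that binds antibody heavy chains, had 4167 and 3999 CPM in VQ bone marrow and 5956 CPM in VQ lymph node, against 4121 CPM in WT. The VQ bone marrow pair lay on either side of WT, with a log2 fold change of -0.01 ± 0.12 (edgeR adjusted p = 0.953). Hsp90b1 (Grp94), the ER Hsp90, had 3425 and 3395 CPM in VQ bone marrow and 4402 CPM in lymph node, against 6573 CPM in WT (-0.95 ± 0.12, edgeR adjusted p = 2.34e-12). These 2 chaperones act on antibody chains in turn, and the values show 1 of them lower in all 3 VQ libraries and the other not. Calr, the soluble lectin chaperone, had 3062 and 3436 CPM in VQ bone marrow and 4214 CPM in lymph node, against 2650.2 CPM in WT (0.29 ± 0.13). Canx, its membrane-bound counterpart, had 759.6 and 615 CPM in VQ bone marrow and 759.6 CPM in lymph node, against 658 CPM in WT (0.08 ± 0.19). Neither of the pair passed the test, although Calr was above WT in all 3 VQ libraries.

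Creld2, Sdf2l1, Sil1 and Manf fell. Creld2, an ER stress-induced protein with isomerase activity, had 619 and 719 CPM in VQ bone marrow and 1464 CPM in lymph node, against 2048 CPM in WT (-1.62 ± 0.15, edgeR adjusted p = 1.08e-20). Sdf2l1, which works with the J-domain protein Dnajb11, had 283 and 343 CPM in VQ bone marrow and 676 CPM in lymph node, against 931 CPM in WT (-1.59 ± 0.19, edgeR adjusted p = 6.38e-14). In both genes the lymph node value lay between VQ bone marrow and WT. Sil1, the nucleotide exchange factor of Hspa5, had 65.3 and 76.7 CPM in VQ bone marrow and 64.6 CPM in lymph node, against 242 CPM in WT (-1.80 ± 0.32). Manf, an ER-resident factor that is secreted under stress, had 1874 and 2376 CPM in VQ bone marrow and 2780.3 CPM in lymph node, against 3239.8 CPM in WT (-0.61 ± 0.13). All 3 VQ libraries were below WT in both of these genes too.

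Of the J-domain co-chaperones 2 fell, 1 rose and 1 did not pass. Dnajc3 (p58IPK) had 899.7 and 1033 CPM in VQ bone marrow and 1293 CPM in lymph node, against 1645 CPM in WT (-0.77 ± 0.15). Dnajb9 (ERdj4), an Xbp1 target that also restrains the sensor encoded by Ern1, had 350.0 and 379 CPM in VQ bone marrow and 385 CPM in lymph node, against 608 CPM in WT (-0.75 ± 0.20). Both were below WT in each VQ library. Dnajb11 (ERdj3) had 898 and 1078 CPM in VQ bone marrow and 1049.6 CPM in lymph node, against 993 CPM in WT (-0.02 ± 0.17). Dnajc1 had 109 and 119 CPM in VQ bone marrow and 114 CPM in lymph node, against 49.7 CPM in WT, where it rests on 8 UMIs (1.18 ± 0.46, edgeR adjusted p = 0.0387). Hyou1, an Hsp70-like exchange factor, had between 75.7 and 128 CPM over the 4 libraries and did not pass.

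Disulfide exchange genes moved in both directions. Txndc5 (ERp46), an isomerase abundant in plasma cells, had 1965 and 2245 CPM in VQ bone marrow and 2197 CPM in lymph node, against 7199.6 CPM in WT (-1.78 ± 0.12, edgeR adjusted p = 9.97e-34). Pdia4 (ERp72) had 421 and 449 CPM in VQ bone marrow and 644 CPM in lymph node, against 1794 CPM in WT (-2.05 ± 0.16, edgeR adjusted p = 6.47e-27). These were the most negative values among the disulfide genes, and the VQ libraries lay well apart from WT in both. Txndc11 had 194 and 162 CPM in VQ bone marrow and 172 CPM in lymph node, against 422 CPM in WT (-1.22 ± 0.24). Erp44, which retains incompletely assembled antibody and the Ero1 oxidases in the early secretory pathway, had 291 and 340.4 CPM in VQ bone marrow and 409 CPM in lymph node, against 552 CPM in WT (-0.82 ± 0.21). Both fell, and both had all VQ libraries below WT.

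By contrast, Pdia6 (P5) had 1998 and 2223 CPM in VQ bone marrow and 2725 CPM in lymph node, against 1316 CPM in WT (0.68 ± 0.15, edgeR adjusted p = 9.98e-05). Ero1l (Ero1 alpha), the oxidase that recharges disulfide isomerases, had 184 and 174 CPM in VQ bone marrow and 214 CPM in lymph node, against 62.1 CPM in WT (1.53 ± 0.40, edgeR adjusted p = 0.00107). Its paralogue Ero1lb did not pass, with a log2 fold change of -0.71 ± 0.32 (edgeR adjusted p = 0.0848), and had between 100.3 and 174 CPM over the 4 libraries. P4hb, the archetypal disulfide isomerase, had 1200.5 and 1215 CPM in VQ bone marrow and 1365 CPM in lymph node, against 1005 CPM in WT (0.26 ± 0.16). Pdia3 (ERp57), which works with calnexin and calreticulin, had between 274 and 438 CPM and did not pass.

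Of the 3 prolyl isomerases, 1 rose and 2 fell. Fkbp11, known as a secretory-cell FK506-binding protein, had 624 and 759.8 CPM in VQ bone marrow and 1061 CPM in lymph node, against 254 CPM in WT (1.43 ± 0.23, edgeR adjusted p = 4.06e-08). Fkbp2 had 496 and 519 CPM in VQ bone marrow and 609 CPM in lymph node, against 1334 CPM in WT (-1.40 ± 0.17, edgeR adjusted p = 2.82e-13). The 2 FK506-binding proteins thus moved by similar amounts in opposite directions. Ppib (cyclophilin B) had 1112 and 1269 CPM in VQ bone marrow and 1636 CPM in lymph node, against 1552 CPM in WT (-0.39 ± 0.15, edgeR adjusted p = 0.0411), and this call was lost in 9 of the alternatives and turned to 0.21 when WT cells with MHC class II were left out.

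Neither sensor passed the test. Atf6 had between 236 and 337 CPM over the 4 libraries. Ern1 rests on 5 and 2 UMIs in VQ bone marrow and 10 in VQ lymph node, against 3 in WT, so no difference was detectable at this depth. Ufm1, the modifier that is attached to ER ribosomes, had between 248 and 369.7 CPM and did not pass. Genes whose exons overlap another gene in GENCODE vM21 may hold reads of both, since the sources used here do not say whether counting used strand. Among the 38 these are Hsp90b1, Pdia3, Pdia4, Pdia6, Txndc5, Txndc11, Dnajb9, Dnajc1, Manf, Ppib, Derl2, Syvn1 and Sil1.

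Leaving out the WT cells with an MHC class II UMI ended the calls of 9 genes (Dnajb9, Dnajc1, Manf, Ero1l, Erp44, Derl2, Syvn1, Os9 and Sil1) besides reversing Ppib, and took the folding median to -0.19 beside a median of 0.57 over all genes. DESeq2 kept 14 of the 25 calls and lost 11, namely those of Pdia6, Dnajc1, Ero1l and Edem1 among the 5 genes that rose, and of Txndc11, Dnajb9, Ppib, Erp44, Derl2, Os9 and Sil1 among those that fell. In cells without proliferation markers, 16 of the 24 calls with a value were kept, and those of Dnajb9, Ppib, Ero1l, Erp44, Derl2, Os9 and Sil1 were lost. Both cell choices also cut depth. Without MHC class II, 37 WT cells with 45727 UMIs without Jchain were left. Without proliferation markers, 29 and 32 VQ bone marrow cells were left, with 55679 and 27999 UMIs, and 2456 genes were tested. The part of depth in the calls lost with these cell choices was not tested.

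Summed over the whole role, folding genes took 2.59% and 2.76% of non-Jchain UMIs in VQ bone marrow and 3.44% in VQ lymph node, against 3.95% in WT bone marrow. Degradation genes took 0.754% and 0.794% in VQ bone marrow and 0.716% in VQ lymph node, against 1.25% in WT. Each VQ library was thus below WT in both sums. Without Edem1, the degradation share was 0.352% and 0.360% in VQ bone marrow and 0.414% in VQ lymph node, against 0.932% in WT. The ratio of folding to degradation UMIs was 3.43 and 3.47 in VQ bone marrow, 4.81 in VQ lymph node and 3.17 in WT. In bone marrow the summed shares separate the 2 roles less than the gene-wise medians do.

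Within libraries, single cells spread around these sums. The median cell devoted 2.54% and 2.66% of its non-Jchain UMIs to folding genes in VQ bone marrow and 3.33% in VQ lymph node, against 3.58% in WT. For degradation genes the median cell had 0.718% and 0.752% in VQ bone marrow and 0.689% in VQ lymph node, against 1.16% in WT. The lower tail differed in VQ bone marrow: the tenth percentile of the folding share was 1.20% and 1.19% there and 2.33% in VQ lymph node, against 2.31% in WT. At least 3 UMIs of plasma cell markers were found in 203 of 226 and 143 of 170 cells of VQ bone marrow and 183 of 185 cells of VQ lymph node, against 106 of 106 in WT, and the part of these cells in the tail was not tested. These shares were not thinned to 1 depth, and median depth was 4700 and 2646 UMIs per cell in VQ bone marrow and 3978 in lymph node, against 1998.5 in WT.

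**Figure D3:**
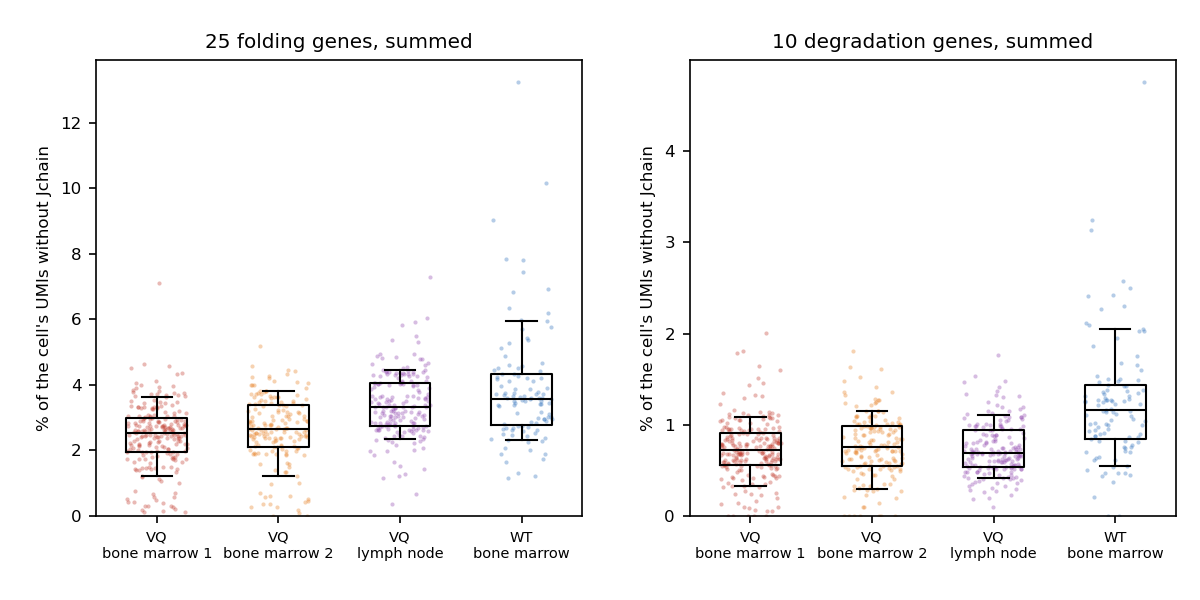
Share of each cell's UMIs without Jchain that came from the 25 folding genes (left) and the 10 degradation genes (right), with 1 point per cell, boxes for the median and quartiles and whiskers at the tenth and ninetieth percentiles. Median folding shares were 2.54% and 2.66% in VQ bone marrow and 3.33% in VQ lymph node, against 3.58% in WT, and the degradation medians of the 3 VQ libraries lay between 0.689% and 0.752%, against 1.16% in WT.

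Further folding, degradation and stress signalling genes were compared between VQ bone marrow and WT, where 12.3% of all genes fell and 17.0% rose. Of 20 other degradation genes, 9 fell and 0 rose (edgeR, adjusted p under 0.05), with a median log2 fold change of -0.66. They include the ubiquitin-conjugating enzymes Ube2j1 (-1.13) and Ube2g2 (-1.25), the lectin Erlec1 (-0.95), the glycanase Ngly1 (-1.56) and the Derlin-associated selenoproteins Selk (-1.99) and Vimp (-1.29). Selk had 420.0 and 446 CPM in VQ bone marrow and 429 CPM in lymph node, against 1719 CPM in WT. Of 19 other folding genes that were tested, 5 rose and 2 fell, with a median of 0.46, so the number that fell was near the share over all genes. Erp29, a disulfide isomerase-like chaperone without a redox site, had 743 and 744 CPM in VQ bone marrow and 903 CPM in lymph node, against 292 CPM in WT (1.35 ± 0.22, edgeR adjusted p = 7.90e-08). Dnajc10 (ERdj5), a disulfide reductase, had 182 and 169 CPM in VQ bone marrow and 199 CPM in lymph node, against 74.5 CPM in WT (1.24 ± 0.38). Tmx2 had 30 and 11 UMIs in VQ bone marrow and 27 in lymph node, against 0 in WT, which makes it at least 1.47-fold higher in VQ bone marrow against a floor of 3 UMIs.

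Of 11 stress signalling genes, 4 fell and 0 rose. Ddit3 (CHOP), the stress-induced transcription factor, had 5 and 0 UMIs in VQ bone marrow and 3 in lymph node, against 16 in WT, a log2 fold change of -4.84 ± 0.85 (edgeR adjusted p = 5.65e-07). Ppp1r15a (GADD34), the phosphatase subunit that restores translation, had 55.8 and 60.9 CPM in VQ bone marrow and 44.3 CPM in lymph node, against 335 CPM in WT (-2.54 ± 0.30). Atf4 (-0.83) and Xbp1 (-0.67), transcription factors of the response, fell by less.

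**Figure D4:**
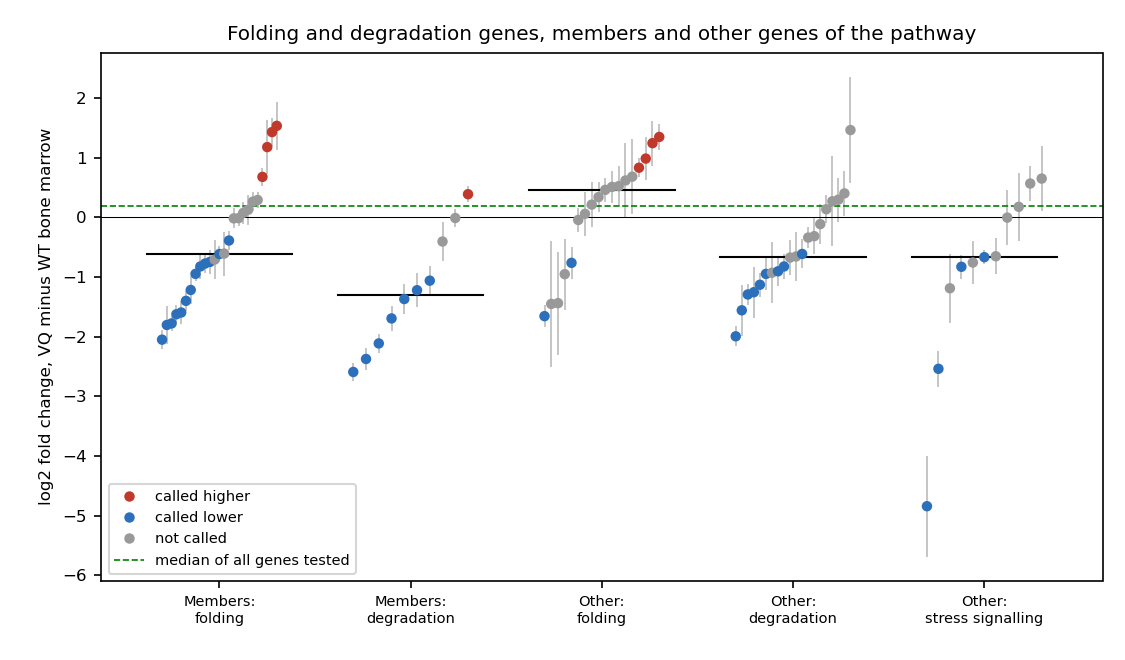
Log2 fold change of VQ bone marrow minus WT bone marrow for the folding and degradation genes and for other folding, degradation and stress signalling genes, with bars for the SE from the edgeR test, a black line at the median of each list and a dashed line at the median of all genes tested (0.19). Medians were -0.61 and -1.29 for the folding and degradation genes and 0.46 and -0.66 for the other folding and degradation genes. Tmx2, at 0 in WT, is not drawn but counts in its list's median.

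The second comparison set VQ lymph node against VQ bone marrow, to ask whether the myeloma cells differ by site. Of the 38 genes 7 rose and 1 fell, against 1.76% and 1.24% of all genes tested. Of the 7 that rose, 6 were folding genes. Creld2 had 1464 CPM in VQ lymph node, against 619 and 719 CPM in VQ bone marrow (1.14 ± 0.14, edgeR adjusted p = 4.54e-12). Sdf2l1 had 676 CPM in lymph node, against 283 and 343 CPM in bone marrow (1.13 ± 0.16, edgeR adjusted p = 3.98e-09). Hspa5 had 5956 CPM in lymph node, against 4167 and 3999 CPM in bone marrow (0.54 ± 0.12, edgeR adjusted p = 0.000382). In each of these the lymph node value lay above both bone marrow values. Fkbp11 (0.63 ± 0.15), Pdia4 (0.57 ± 0.16) and Ppib (0.46 ± 0.14) also rose, with edgeR adjusted p of 0.00281, 0.0148 and 0.0305. Derl3 was the degradation gene that rose (0.58 ± 0.16, edgeR adjusted p = 0.0143). Edem1 fell, with 3056 CPM in lymph node, against 3953 and 4326 CPM in bone marrow (-0.44 ± 0.12, edgeR adjusted p = 0.0213).

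Lymph node values lay above both bone marrow values in 19 of 25 folding genes and 7 of 10 degradation genes. The share of all genes with that pattern was not counted, so these counts have no background to be read against. The median log2 fold change was 0.37 for folding genes and 0.18 for degradation genes, beside -0.01 over all genes. The lymph node library is 1 sample assumed to vary like the bone marrow pair. When cells with markers of other cell types were left out, the calls of Pdia4, Ppib and Edem1 were lost, and in cells without proliferation markers 3 of the 8 calls were kept (Creld2, Fkbp11 and Ppib), those of Hspa5, Pdia4, Sdf2l1 and Derl3 were lost, and the Edem1 difference turned to 0.30 (edgeR adjusted p = 0.555). With DESeq2, only the Creld2 call was kept. With thinned sums, and with a preset coefficient of variation of 0.2, 0 of the 8 calls were kept, so that of Creld2 was lost too. Of the 56 other pathway genes tested over all lists, 1 rose, which is near the 1.76% over all genes tested. It was the LDL receptor chaperone Mesdc2, which had 184 CPM in lymph node, against 115 and 115 CPM in bone marrow (0.67 ± 0.21, edgeR adjusted p = 0.0439).

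The third pairing, VQ lymph node against WT bone marrow, has 1 library a side and no test, and it shares its libraries with the other comparisons. The interval given with each ratio is an exact 95% interval that covers counting error only. Relative to WT, 10 of the 38 genes were at least 2-fold lower and 4 at least 2-fold higher in VQ lymph node, where 19.2% and 29.5% of all genes were. The lower ones were 5 folding genes (Pdia4, Txndc5, Txndc11, Fkbp2 and Sil1) and 5 degradation genes (Herpud1, Edem2, Derl1, Derl3 and Syvn1). For Herpud1 the ratio of VQ lymph node to WT was 0.179 (0.157 to 0.205), and for Txndc5 it was 0.305 (0.283 to 0.329). The 4 higher ones were all folding genes. Their ratios were 4.17 (3.05 to 5.85) for Fkbp11, 3.45 (1.83 to 7.32) for Ero1l, 2.29 (1.12 to 5.48) for Dnajc1 and 2.07 (1.80 to 2.40) for Pdia6. Hspa5 had a ratio of 1.45 (1.33 to 1.57), Sdf2l1 0.726 (0.605 to 0.876) and Creld2 0.715 (0.632 to 0.810). The lymph node library was therefore above WT for Hspa5 and below WT for Sdf2l1 and Creld2, beyond counting error.

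The VQ bone marrow libraries also hold a few cells with Jchain of at least 5%, which allows a comparison inside each library, where the library's handling is shared. There were 19 such cells with 21879 UMIs in replicate 1 and 18 with 12721 UMIs in replicate 2, and their median depth was 1064 and 699.5 UMIs per cell. Beside the choice by Jchain, the 2 kinds of cell differed in other genes. Mzb1, a plasma cell co-chaperone of Hsp90b1, had 45.2 and 52.0 CPM in Jchain-low cells, against 2635 and 3492 in Jchain-high cells. Myc had 1270 and 1462 CPM in Jchain-low cells, against 234 and 0 in Jchain-high cells. Proliferation markers had 2461 and 2373 CPM in Jchain-low cells, against 527 and 849 in Jchain-high cells. Levels below are scaled within this comparison and are not on the scale of the values above.

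In Jchain-low relative to Jchain-high cells of the same libraries, 9 of 37 genes tested rose and 3 fell, against 3.56% and 1.82% of 4715 genes (edgeR with library as a block). The genes that fell were Herpud1, Derl3 and Txndc5. Herpud1 had 589 and 599.5 CPM in Jchain-low cells, against 2125 and 2147 CPM in Jchain-high cells (-1.84 ± 0.33, edgeR adjusted p = 3.63e-06). Derl3 had 475 and 556 CPM in Jchain-low cells, against 1007 and 1593 CPM in Jchain-high cells (-1.31 ± 0.36, edgeR adjusted p = 0.00939). Txndc5 had 2368 and 2714 CPM in Jchain-low cells, against 5480.1 and 6647 CPM in Jchain-high cells (-1.25 ± 0.33, edgeR adjusted p = 0.00666). In all 3 genes both libraries moved the same way, and both summed Jchain-low values lay below both summed Jchain-high values. Overlap between single cells was not examined, and the share of all genes with this pattern was not counted.

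The 9 genes that rose were Hspa5, Hsp90b1, Calr, Canx, Pdia6, Fkbp11, Edem1, Sel1l and Ufm1. Fkbp11 had 753 and 918 CPM in Jchain-low cells, against 112 and 138.5 CPM in Jchain-high cells, where it rests on 2 and 2 UMIs (2.74 ± 0.60, edgeR adjusted p = 0.000368). Calr had 3691 and 4153 CPM in Jchain-low cells, against 503 and 1246 CPM in Jchain-high cells (2.24 ± 0.40). Edem1 had 4765 and 5229 CPM in Jchain-low cells, against 1342 and 1454 CPM in Jchain-high cells (1.84 ± 0.38, edgeR adjusted p = 0.000106). Pdia6 had 2408 and 2687 CPM in Jchain-low cells, against 839 and 623 CPM in Jchain-high cells (1.78 ± 0.39). These 4 genes rose in both libraries. Hspa5 had 5023 and 4834 CPM in Jchain-low cells, against 2069 and 1246 CPM in Jchain-high cells (1.58 ± 0.37). Dnajc1, which did not pass the test (edgeR adjusted p = 0.230), was at 0 in the Jchain-high cells of both libraries. With a preset floor of 3 UMIs over both libraries in place of 0, its ratio of Jchain-low to Jchain-high cells would be 1.46. This floor is no confidence limit, and the median log2 fold change over all genes was 0.73 here, so no rise of Dnajc1 was shown.

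The size of these differences depends on the scaling, because the median over all genes was 0.73 in this comparison and 0.25 with plain library totals. With totals, 6 genes rose (Hspa5, Calr, Pdia6, Fkbp11, Edem1 and Sel1l), against 1.38% of all genes, and 5 fell (Herpud1, Derl3, Txndc5, Edem2 and Sdf2l1), against 2.8%. Hspa5, Calr, Pdia6, Fkbp11, Edem1 and Sel1l rose, and Herpud1, Derl3 and Txndc5 fell, under both scalings. With a Jchain limit of 10% for the Jchain-high cells, 6 genes rose in place of 9. The comparison of VQ bone marrow with WT shares the Jchain-low cells, and its values differ from these for some genes. Hsp90b1 rose here with TMM scaling (1.16 ± 0.36) and fell there (-0.95 ± 0.12). Its rise here was lost in 2 of the alternatives, among them library totals (0.65, edgeR adjusted p = 0.193). Hspa5, Calr and Sel1l were not called in VQ bone marrow against WT.

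**Figure D5:**
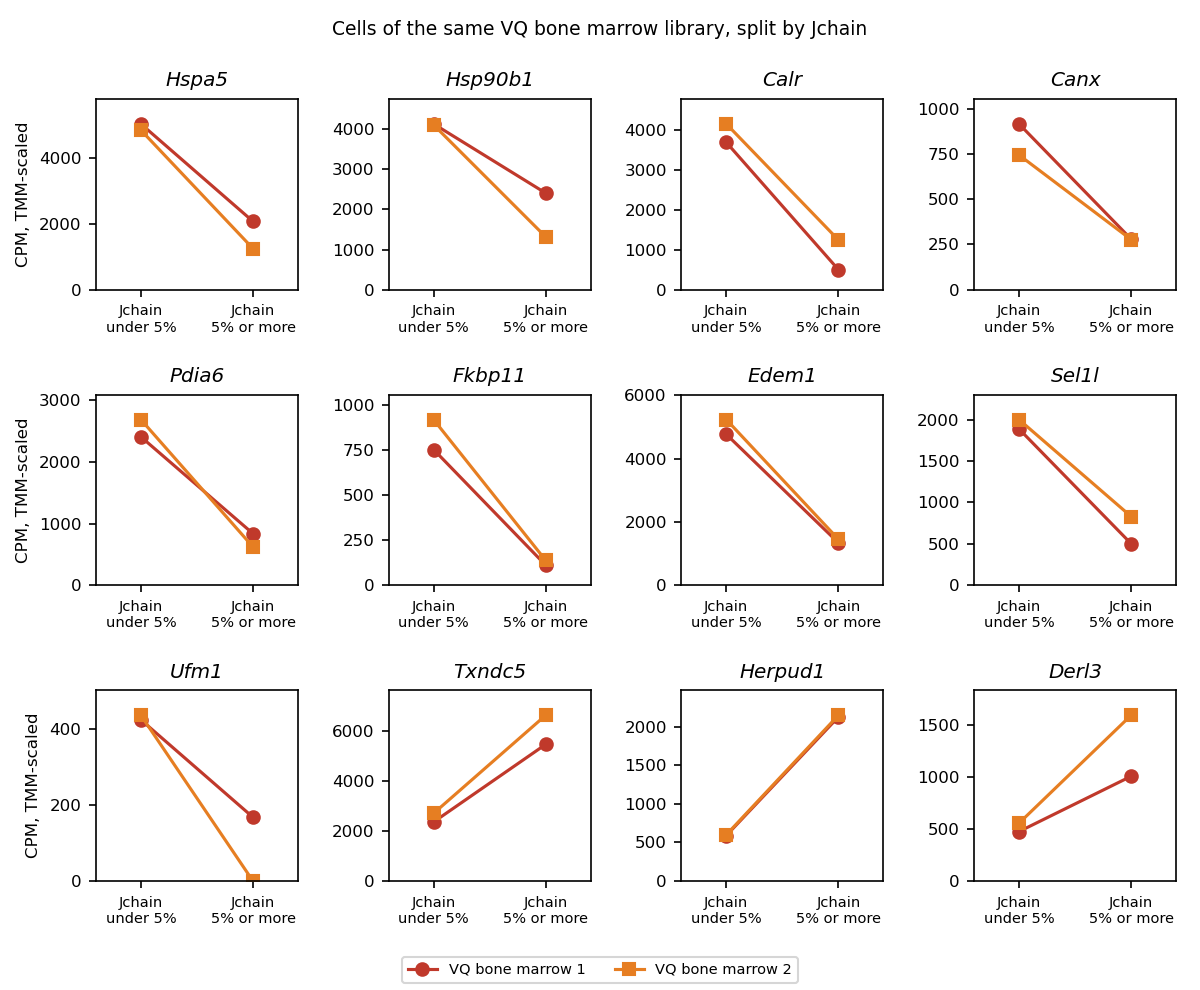
Level of the 12 genes called between Jchain-low and Jchain-high cells of the same VQ bone marrow library, as TMM-scaled CPM, with a line for each library. The first 9 panels show genes that rose in Jchain-low cells, and the last 3 show Txndc5, Herpud1 and Derl3, which were lower in Jchain-low cells of both libraries.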

How the data were processed

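The authors deposited unnormalised UMI counts of each gene in each cell barcode that passed their knee filter, made from libraries prepared on the ddSEQ isolator with the SureCell 3′ kit, per the labels' protocols. Reads were placed on mm10, per the submitters' processing notes. The aligner and counter are not given in the sources used here. No doublet caller was run, and whether doublets were removed before deposit is not given in those sources.

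The 38 members, the role groups and the other gene lists were chosen with earlier results of these data known. Counts of the chosen cells were summed per library, since cells are not replicates, and the Jchain row was removed. All 4 sums entered 1 fit of 3 group means in edgeR 4.0.16 (R 4.3.3) with TMM scaling, filterByExpr and the quasi-likelihood test, and p-values were adjusted by Benjamini-Hochberg over 8414 genes. With 1 residual degree of freedom, the spread comes from the 2 VQ bone marrow libraries and is assumed to hold for the single ones. Each gene's spread was pulled strongly toward the value shared over all genes (277.9 prior degrees of freedom). The p-values and SEs thus reflect little of a gene's own spread. These 2 differed beyond counting noise (a chi-square of 1.61 per degree of freedom over 8042 genes), and the common biological coefficient of variation was 0.0926. SEs are the log2 fold change over the square root of the F statistic. VQ lymph node against WT has no test. The within-library comparison used library as a block. The scripts were tested on simulated counts.

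Every member is named. Values per library are given for members called in either tested comparison and for others with at least 500 CPM in any library. Of the other pathway genes, the 3 largest called changes in each direction are given with values, and the rest that are named were chosen after their values were seen. Alternatives were other scalings, DESeq2 1.42.0, no filter, Jchain limits of 3% and 10%, leaving out WT cells with MHC class II, cells with at least 3 UMIs of other cell types' markers or cells with proliferation markers, sums thinned to 162471 UMIs, a preset coefficient of variation of 0.2, and leaving out libraries. Promoters came from RefSeq and gene overlaps from GENCODE vM21. The UFMylation list among the other pathway genes is not reported here.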

Additional observations from a re-analysis of the deposited data

Results flagged for a closer look

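For 8 genes the difference from WT bone marrow was itself different between the VQ lymph node and VQ bone marrow, by the edgeR test of lymph node against bone marrow (adjusted p under 0.05), which is the same contrast because WT cancels out. The log2 fold change against WT in lymph node minus that in bone marrow was 1.14 for Creld2 and 1.13 for Sdf2l1. It was 0.63 for Fkbp11, 0.58 for Derl3, 0.57 for Pdia4, 0.54 for Hspa5 and 0.46 for Ppib. For Edem1 it was -0.44. Groups held 1 or 2 libraries, so no library was tested as an outlier within its group.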

How the results depend on the processing

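Of the genes called in VQ bone marrow against WT (20 lower, 5 higher), the number lower was 13 with DESeq2, 12 without WT cells with MHC class II and 6 with thinned sums, and the number higher was 1 with DESeq2, 3 with a Jchain limit of 10%, 2 in cells without proliferation markers, 0 with thinned sums and 2 with a preset coefficient of variation of 0.2. The folding median of -0.61 became -0.19 without WT cells with MHC class II and lay between -0.80 and -0.48 with each VQ bone marrow replicate left out. The degradation median of -1.29 became -1.05 without those WT cells, -1.54 without proliferation markers and -1.50 with thinned sums, and lay between -1.45 and -1.26 with each replicate left out, where no residual degree of freedom was left for a test. In VQ lymph node against VQ bone marrow the number higher was 1 with DESeq2, 0 with thinned sums and 0 with the preset coefficient of variation, in place of 7. The number lower was 0 in place of 1 with DESeq2, a Jchain limit of 10%, cells of other types left out, no proliferation markers, thinned sums and the preset coefficient. Between VQ lymph node and WT, 7 genes in place of 4 were at least 2-fold higher without WT cells with MHC class II. The median log2 fold change over all genes also moved in that setting, from 0.17 to 0.56. In VQ bone marrow against WT it moved from 0.19 to 0.57, above the value of Ppib below. Within the VQ bone marrow libraries, 5 genes in place of 3 were lower with library totals, and without the replicate block 12 rose and 4 fell. Ppib turned to 0.21 in VQ bone marrow against WT without WT cells with MHC class II, and Edem1 to -0.18 there and 0.30 in lymph node against bone marrow in cells without proliferation markers. Thinned sums and the preset coefficient leave fewer UMIs or assume a wider spread by construction. Leaving out WT cells with MHC class II, or cells with proliferation markers, also leaves far fewer UMIs. The part of depth in those shifts was not tested, nor was the cause of the other shifts. No paired analysis was possible because the groups share fewer than 2 replicate numbers. Depth limits WT most, where 162471 UMIs put 3 counts at 18.6 CPM.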
